A study of Mus musculus with 15 samples.

Results

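The table of FPKM values (fragments mapped to a gene, scaled to its exon length and to the library's mapped fragments) held 14392 genes, of which 48 were proteasome genes by name, that is, rows whose symbol opened with Psma, Psmb, Psmc, Psmd, Psme, Psmf or Psmg and a digit. By role, 14 of them encode the constitutive core particle, 17 encode the regulatory particle, and the other 17 comprise alternative core subunits, activators, an inhibitor, assembly chaperones and Psmc3ip, a meiotic recombination gene that matched by name only. Psma8, the testis form of an alpha subunit, was not among the rows. RNA was measured in 8 libraries of 10 pooled embryos, with 2 libraries for each of WT and cKO at the zygote and at the 2-cell stage. All mice were on a C57BL/6 background. WT embryos carried both copies of Usp16, which encodes a deubiquitinase that removes ubiquitin from histone H2A. The cKO embryos came from Usp16 fl/fl;Gdf9-Cre mothers mated to WT males, with Gdf9-Cre acting in oocytes from the primordial follicle stage, so they lacked maternal Usp16 and kept an intact paternal allele. Per the study's methods, mothers in the fourth week of life were superovulated with gonadotropins before mating to adult WT males, and nothing said that the libraries of a group came from separate mothers, so the spread between them may be technical.

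The proteasome degrades proteins that carry ubiquitin. Its core particle is a barrel of outer alpha rings and inner beta rings, and the catalytic beta subunits cut the substrate. The regulatory particle caps the barrel: its base holds a ring of ATPases that unfold the substrate, and its lid removes the ubiquitin. In the egg-to-embryo transition, maternal mRNAs and proteins are cleared while the zygotic genome is switched on, and the early embryo relies on maternal transcripts until then.

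In mouse cells, antioxidant response elements near the start of proteasome genes are known as binding sites of the factor encoded by Nfe2l1. The letters TGACNNNGC, searched on both strands, were found in the 250 bases before the start in 5 of the 44 promoters that matched 41 of the 48 genes, or 11.4%, against 10.2% of all 32851 promoters of that length. The share in the proteasome genes was thus close to that of all promoters. These 5 promoters, from RefSeq on GRCm38.p6, are printed in full because they belong to genes of different roles that are described later: Psmb5 (chr14:54617996-54618245, minus strand), Psmb6 (chr11:70525107-70525356, plus strand), Psmc6 (chr14:45329574-45329823, plus strand), Psmd12 (chr11:107479278-107479527, plus strand) and Psmd9 (chr5:123227940-123228189, plus strand). Capitals mark the match, read 5' to 3' on the strand of the gene.
Psmb5: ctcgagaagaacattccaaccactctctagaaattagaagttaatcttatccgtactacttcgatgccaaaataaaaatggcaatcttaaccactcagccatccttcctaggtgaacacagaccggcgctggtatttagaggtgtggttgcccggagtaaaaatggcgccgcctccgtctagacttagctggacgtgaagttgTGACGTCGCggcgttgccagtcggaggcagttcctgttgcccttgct
Psmb6: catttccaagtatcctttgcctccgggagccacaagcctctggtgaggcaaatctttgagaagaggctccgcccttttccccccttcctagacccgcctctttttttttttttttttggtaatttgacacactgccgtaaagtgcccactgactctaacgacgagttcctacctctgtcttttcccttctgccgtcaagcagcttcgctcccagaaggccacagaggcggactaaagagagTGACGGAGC
Psmc6: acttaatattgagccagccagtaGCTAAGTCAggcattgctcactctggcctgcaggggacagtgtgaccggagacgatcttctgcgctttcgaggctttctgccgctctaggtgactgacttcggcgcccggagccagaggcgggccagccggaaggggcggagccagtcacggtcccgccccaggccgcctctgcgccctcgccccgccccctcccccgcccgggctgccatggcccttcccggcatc
Psmd12: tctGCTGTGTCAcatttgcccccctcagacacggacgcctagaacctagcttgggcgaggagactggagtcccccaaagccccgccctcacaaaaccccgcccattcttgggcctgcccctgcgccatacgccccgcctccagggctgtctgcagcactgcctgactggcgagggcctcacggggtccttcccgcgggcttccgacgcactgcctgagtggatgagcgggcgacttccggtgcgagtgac
Psmd9: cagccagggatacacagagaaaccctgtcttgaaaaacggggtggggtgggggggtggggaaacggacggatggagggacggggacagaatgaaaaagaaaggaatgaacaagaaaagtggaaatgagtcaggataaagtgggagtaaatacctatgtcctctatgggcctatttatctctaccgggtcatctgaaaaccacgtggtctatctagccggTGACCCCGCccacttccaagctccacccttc
The match lay on the gene's own strand in Psmb5, Psmb6 and Psmd9, and on the other strand in Psmc6 and Psmd12. The CCAAT box, likewise searched on both strands, was present in 15 of the 44 promoters, or 34.1%, against 33.9% of all promoters.

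Usp16 itself was at 184 and 187 FPKM in WT zygotes and at 16.8 and 22.0 FPKM in cKO zygotes, so the groups did not overlap. At the 2-cell stage it was at 168 and 183 FPKM in WT and at 168 and 84.8 FPKM in cKO embryos. The sum of FPKM over all genes was 770989 in cKO 2-cell replicate 2, against 547752 to 593317 in the other libraries. This library stood apart. Without it, the spread of cKO 2-cell embryos no longer enters the fit, so counts of called genes are given only with it. FPKM is relative to each library's mapped fragments, so a larger share of the RNA and more transcripts per embryo cannot be told apart. Since cDNA was primed with oligo-dT, a change in poly(A) tail and a change in transcript number cannot be told apart either. The egg markers were present in every library. Their sum over 10 genes was 15368 to 16912 FPKM in WT zygotes, 6328 to 8051 FPKM in WT 2-cell embryos and 1298 to 3061 FPKM in cKO 2-cell embryos. In the last, 6 of the 10 were lower than in WT at a limma adjusted p under 0.05, against 24.6% of all genes. The 2-cell markers, of which 5 were in the table, summed to 6.45 to 7.21 FPKM in WT zygotes. Their sum was 370 to 589 FPKM in WT 2-cell embryos and 134 to 137 FPKM in cKO 2-cell embryos. By the same test 5 of the 5 were lower in cKO than WT 2-cell embryos, against the same 24.6%. Both lists thus moved with the genotype at the 2-cell stage, and their part in the results on 2-cell embryos was not tested. Of 12 cumulus and granulosa markers 3 were in the table, with a summed level of at most 28.7 FPKM, and of 6 sperm and testis markers 4 were, with at most 23.1 FPKM. Among them Cyp19a1 was at 22.3 to 26.7 FPKM in the zygote libraries and at most 1.78 FPKM in the 2-cell libraries. Prm2 was at 13.5 to 20.1 FPKM in zygotes and at most 1.64 FPKM in 2-cell embryos. Their part in the stage comparisons was not tested.

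**Figure D1:**
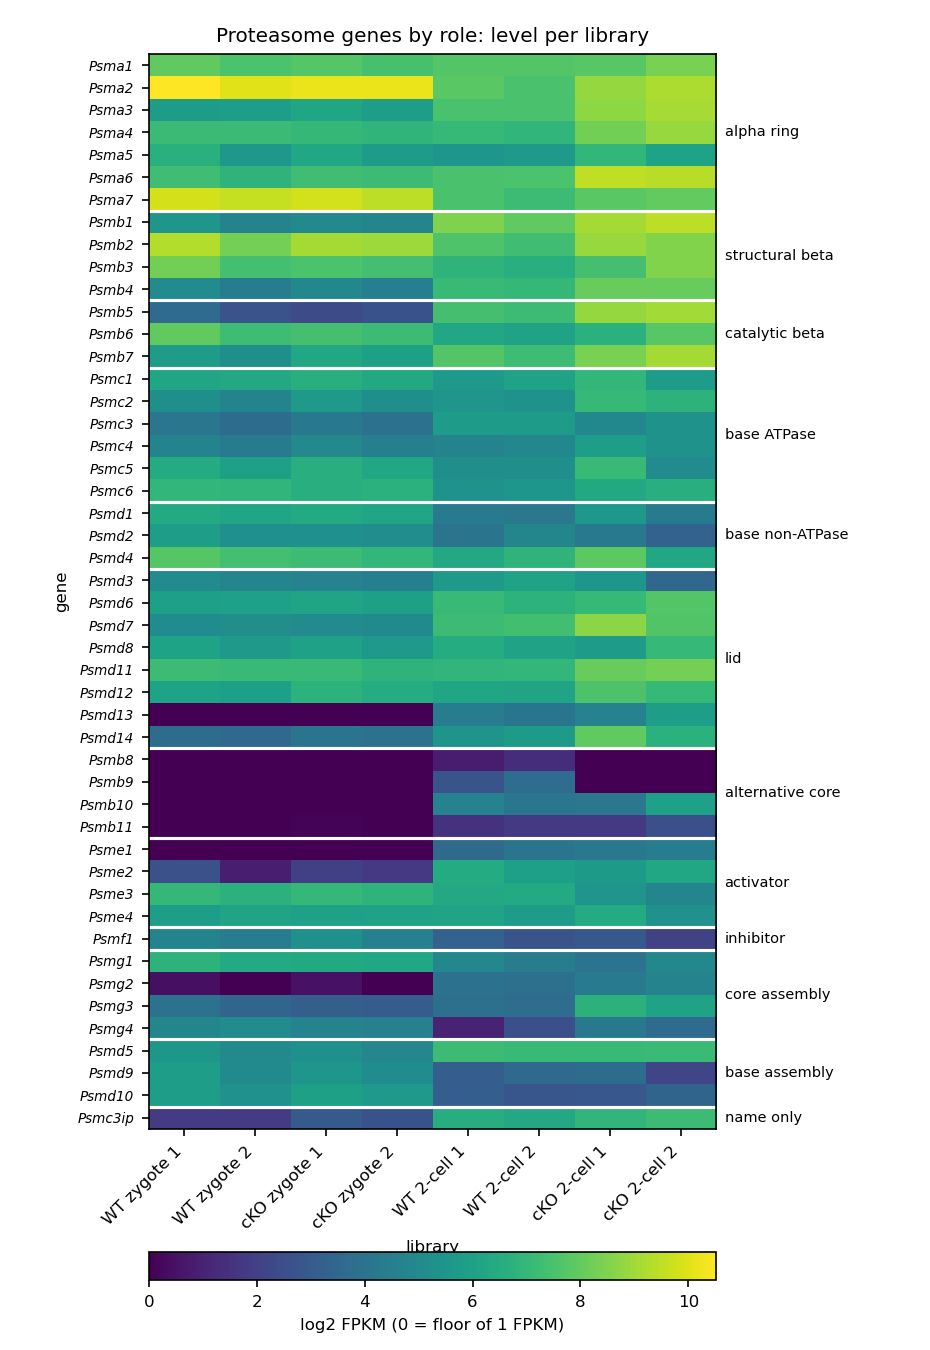
Level of the 48 proteasome genes (rows, grouped by role) in each of the 8 libraries (columns), as log2 FPKM, where 0 is the floor of 1 FPKM. Psma2 and Psma7 were highest in zygotes, Psmd13 and Psmb8 to Psmb10 were at the floor in all zygote libraries, and Psma6 was highest in the cKO 2-cell libraries.

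The first comparison asked which proteasome genes changed between the zygote and the 2-cell embryo in WT. Core genes moved in opposite directions. In the core, 5 of 14 (35.7%) rose, a share close to the 34.2% of all genes, and 4 of 14 (28.6%) fell, against 15.5%. The catalytic subunits divided, with Psmb5 and Psmb7 rising and Psmb6 falling. The alternative core subunits rose 4 of 4 from levels at or near the floor, though Psmb8 and Psmb11 stayed little above it. The inhibitor Psmf1 and 2 of the 3 base assembly chaperones fell. In all, 19 of the 48 genes rose and 11 fell at a limma adjusted p under 0.05, adjusted by Benjamini-Hochberg over all 14392 genes, against a background of 34.2% of all genes that rose and 15.5% that fell. By mean FPKM, 17 were more than 3-fold higher and 7 more than 3-fold lower, against 26.0% and 8.78% of all genes. The 2 sets of genes called by the fold were within those called by limma.

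Psmb5, which carries the chymotrypsin-like activity of the core (mm9 chromosome 14, 55232644 to 55236851), had the largest rise among core genes. It was at 12.8 and 6.40 FPKM in WT zygotes and at 169 and 147 FPKM in WT 2-cell embryos. The mean was 16.4-fold higher, with a log2(FPKM + 1) difference of 3.97 ± 0.32 (standard error, n = 2 libraries per group here and for every difference, limma adjusted p = 0.000244). In mm9, 1 other locus matched 99.9% of its transcript at 99.0% identity, so reads may be divided between them and its level is uncertain. Psmb7, which carries the trypsin-like activity, was at 56.5 and 37.8 FPKM in WT zygotes and at 207 and 154 FPKM in WT 2-cell embryos, 3.82-fold higher (limma adjusted p = 0.00458). Psmb6, which carries the caspase-like activity, went the other way, from 246 and 154 FPKM to 79.3 and 66.1 FPKM. Its mean was 2.75-fold lower, with a log2 difference of -1.41 ± 0.41 (limma adjusted p = 0.0294), the weakest of the 3 calls. In each of these 3 genes, no zygote value lay within the range of the WT 2-cell values.

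The alpha subunits Psma2 (mm9 chromosome 13, 14705521 to 14719674) and Psma7 were the highest core genes in zygotes. Psma2 was at 1462 and 1067 FPKM in WT zygotes and at 229 and 181 FPKM in WT 2-cell embryos, 6.17-fold lower, with a log2 difference of -2.61 ± 0.27 (limma adjusted p = 0.000587). Psma7 was at 904 and 769 FPKM and then at 181 and 147 FPKM, 5.10-fold lower (limma adjusted p = 0.000482). Psma5, the lowest core gene in WT 2-cell embryos, was at 102 and 48.5 FPKM in WT zygotes and at 46.6 and 50.0 FPKM in WT 2-cell embryos, a difference within the spread of the zygotes (limma adjusted p = 0.346). It has 2 near-identical loci elsewhere in mm9, as do Psma4 and Psmb3 with 1 each, and these levels are uncertain in the same way. The other risers of the core were Psma3, Psmb1 and Psmb4, and Psmb2 was the other gene that fell. Between WT zygotes and WT 2-cell embryos, the median log2 difference was -0.12 over the 14 core genes and 0.27 over all genes.

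Of the regulatory particle, 5 of 17 genes rose and 2 fell, against the 34.2% and 15.5% of all genes given above. Psmd13, a lid subunit, was at the floor of 1 FPKM in all 4 zygote libraries and at 21.9 and 17.2 FPKM in WT 2-cell embryos, at least 19.6-fold higher (limma adjusted p = 0.000919). Psmd14, the lid enzyme that cuts ubiquitin from the substrate, was at 13.3 and 12.0 FPKM in WT zygotes and at 43.5 and 52.7 FPKM in WT 2-cell embryos, 3.80-fold higher (limma adjusted p = 0.00947). GENCODE M1 lists 2 entries under this symbol, on chromosome 2 of mm9 from 61549751 to 61638433 and from 61549751 to 61558658. Psmc3, an ATPase of the base, rose from 17.3 and 13.0 FPKM to 56.2 and 55.3 FPKM, or 3.67-fold (limma adjusted p = 0.00162). Psmd6 and Psmd7 of the lid also rose. Psmd1, a scaffold of the base, fell from 87.1 and 75.5 FPKM to 20.1 and 18.4 FPKM, or 4.22-fold (limma adjusted p = 0.00618), and the ATPase Psmc6 fell too. By sign alone, with no test, 7 of the 8 lid genes, 3 of the 6 base ATPases and 0 of the 3 other base genes had a difference above 0, as did 9015 of all 14392 genes. The median over the 17 genes was 0.26, near that of all genes.

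The alternative core subunits replace catalytic subunits: Psmb8, Psmb9 and Psmb10 form the immunoproteasome, which is abundant in immune cells, and Psmb11 the thymoproteasome. Psmb10 was at the floor in the 4 zygote libraries and at 25.0 and 17.4 FPKM in WT 2-cell embryos, at least 21.2-fold higher (limma adjusted p = 0.00331). Psmb9 (chromosome 17 of mm9, with entries from 34318932 to 34324697 and from 34318933 to 34324709) was at the floor in the same 4 libraries and at 6.68 and 13.7 FPKM in WT 2-cell embryos, at least 10.2-fold higher (limma adjusted p = 0.000977). Psmb8 was at 1.79 and 2.63 FPKM and Psmb11 at 2.89 and 3.42 FPKM in WT 2-cell embryos, little above the floor. Psmb11 was at the floor in WT zygotes, at 1.06 FPKM and the floor in cKO zygotes, and at 3.48 and 5.94 FPKM in cKO 2-cell embryos. When each library was divided by its median ratio over genes to their geometric mean, Psmb8 and Psmb11 did not pass the test in WT. Of the 8 white blood cell markers listed, 5 were in the table, and their summed level was 6.47 to 8.48 FPKM in WT zygotes, 7.17 to 8.04 FPKM in cKO zygotes, 30.5 to 33.5 FPKM in WT 2-cell embryos and 9.02 to 14.7 FPKM in cKO 2-cell embryos. Among them Coro1a, an actin regulator of leukocytes, was at 11.6 and 9.39 FPKM in the WT 2-cell libraries and at the floor in the other 6, and Cd79a, a part of the B cell receptor, at 6.64 and 2.71 FPKM and at the floor in the other 6. Of the 5 markers, 4 rose in WT 2-cell embryos by limma, against 34.2% of all genes. Laptm5, at 4.48 and 2.47 FPKM in WT zygotes and 1.57 and 2.74 FPKM in WT 2-cell embryos, did not pass the test. In cKO 2-cell embryos 3 of the 5, Coro1a, Lyz2 and Cd79a, were lower than in WT, against 24.6% of all genes. Psmb8 and Psmb9 were lower as well. Cd52 was at 10.5 and 11.7 FPKM in WT and 4.74 and 10.7 FPKM in cKO 2-cell embryos, so the groups overlapped (limma adjusted p = 0.26). The part of these markers in the results on Psmb8 and Psmb9 was not tested.

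The activators cap the core in place of the regulatory particle. Psme1 and Psme2 encode the subunits of one ring: Psme1 was at the floor in the 4 zygote libraries and at 12.6 and 16.3 FPKM in WT 2-cell embryos, at least 14.5-fold higher (limma adjusted p = 0.000222). Psme2, which has a near-identical locus elsewhere in mm9, went from 6.13 and 1.84 FPKM to 89.5 and 61.1 FPKM, 18.9-fold higher (limma adjusted p = 0.0009). Psme3 and Psme4, which form other activators and act in the nucleus, did not pass the test: Psme3 was at 127 and 107 FPKM in WT zygotes and at 80.6 and 86.3 FPKM in WT 2-cell embryos, and Psme4 at 59.5 and 70.7 FPKM and at 69.7 and 56.9 FPKM. Psmf1, the inhibitor, fell from 26.9 and 21.7 FPKM to 9.81 and 6.61 FPKM, or 2.96-fold (limma adjusted p = 0.0173).

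The core assembly chaperones act in pairs, Psmg1 with Psmg2 and Psmg3 with Psmg4, and in WT Psmg1 and Psmg2 moved in opposite directions. Psmg1 fell from 111 and 85.5 FPKM in WT zygotes to 30.3 and 22.2 FPKM in WT 2-cell embryos, or 3.74-fold (limma adjusted p = 0.00427). Psmg2 rose from 1.36 FPKM and the floor to 15.0 and 14.7 FPKM, at least 12.6-fold (limma adjusted p = 0.00027). In the other pair, Psmg3 was at 15.6 and 10.9 FPKM and then at 14.9 and 13.5 FPKM, and Psmg4 fell from 28.0 and 33.7 FPKM to 2.06 and 5.93 FPKM, or 7.73-fold (limma adjusted p = 0.00234). Psmg4 had the largest fall of all 48 genes on the log2(FPKM + 1) scale, at -2.79 ± 0.42. Of the chaperones of the base, Psmd5 rose from 47.7 and 32.1 FPKM to 147 and 141 FPKM (limma adjusted p = 0.00166), whereas Psmd10 fell from 59.7 and 39.8 FPKM to 8.75 and 7.07 FPKM (limma adjusted p = 0.000946) and Psmd9 from 57.6 and 32.5 FPKM to 9.19 and 12.2 FPKM (limma adjusted p = 0.0196). Psmc3ip, matched by name only, rose from 3.70 and 3.50 FPKM to 93.4 and 81.1 FPKM.

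The core subunits are built into the particle in equal number, yet their transcript levels were far apart in zygotes and close together in 2-cell embryos. This pattern was chosen after its values were seen and is given as a description, with no test. In the 4 zygote libraries, the highest core gene, Psma2, was 114-fold to 215-fold above the lowest, Psmb5. In the WT 2-cell libraries, the highest, Psmb1, was 7.71-fold and 4.99-fold above the lowest, Psma5. Both lowest genes have near-identical loci in mm9, so these folds are uncertain. The spread was not set against that of all genes. The SD of log2 FPKM among the 14 genes was 1.93 to 2.04 in the zygote libraries, 0.71 and 0.63 in WT 2-cell and 0.83 and 0.88 in cKO 2-cell libraries. It did not rest on 1 gene: over the group means, leaving out each core gene in turn gave 1.72 to 2.05 in WT zygotes and 0.51 to 0.70 in WT 2-cell embryos. Across the 14 core genes, the order of the levels in WT zygotes bore little relation to that in WT 2-cell embryos (Spearman rho 0.033), whereas the orders in WT and cKO 2-cell embryos were alike (0.758). These coefficients are over genes that share libraries, not over replicates. In the regulatory particle the SD was 1.75 over the WT zygote means and 0.93 over the WT 2-cell means. Without 1 gene at a time it was 1.11 to 1.81 in WT zygotes and 0.87 to 0.96 in WT 2-cell embryos, so a large part of the zygote value came from the gene at the floor, Psmd13.

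**Figure D2:**
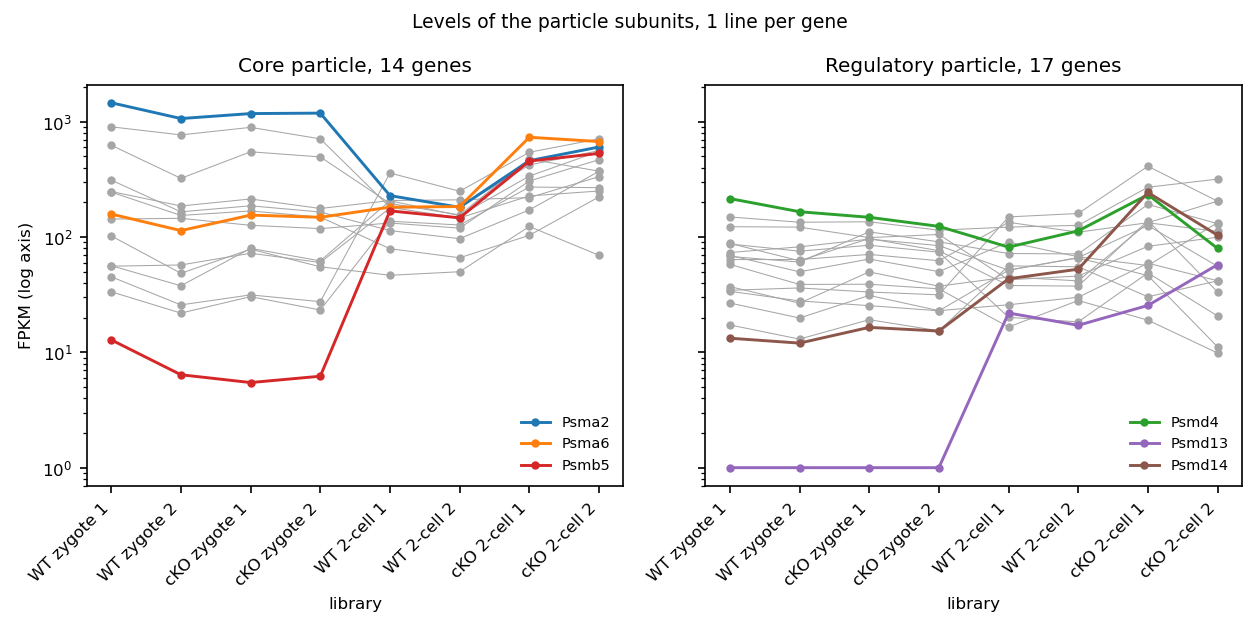
FPKM of each core gene (left, 14 genes) and regulatory particle gene (right, 17 genes) in the 8 libraries, on a log axis, where a line joins the values of 1 gene and named genes are in colour. The core genes spread from 5.47 to 1462 FPKM over the zygote libraries and from 46.6 to 359 FPKM over the WT 2-cell libraries.

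In cKO embryos, 23 of the 48 genes rose between the zygote and the 2-cell stage and 9 fell, against 24.6% and 27.1% of all genes. These counts include cKO 2-cell replicate 2, the library that stood apart. The risers included 7 of 14 core genes, 8 of 17 regulatory genes and 8 of the other 17. Psma4, Psma6, Psmc2, Psmc4, Psmd11 and Psmg3 were among them and did not pass the test in WT, but this alone does not show that the stages differed between genotypes.

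The second comparison asked which proteasome genes differed between cKO and WT zygotes. None of the 48 passed the test in either direction, and none differed by more than 3-fold. In all, 0.0208% of genes were higher and 0% lower by limma, and 0.104% were more than 3-fold higher and 0.0486% more than 3-fold lower. At an unadjusted limma p under 0.05, 2 of the 48 genes, Psmd12 and Psmc3ip, were higher and 0 were lower, compared with 324 and 84 of all genes. The log2 differences lay between -0.57 for Psmb5 and 0.81 for Psmc3ip. Psmb5 was at 12.8 and 6.40 FPKM in WT zygotes and at 5.47 and 6.21 FPKM in cKO zygotes, and Psmd12, a scaffold of the lid, was at 67.9 and 60.7 FPKM against 111 and 90.9 FPKM. The median over the core genes was -0.09, and that over all genes was 0. The cKO levels of core genes followed those of WT (Spearman rho 0.974 across 14 genes).

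The third comparison asked the same of 2-cell embryos. Of the 48 proteasome genes, 15 were higher in cKO at a limma adjusted p under 0.05, or 31.2%, against 6.16% of all genes, and 3 were lower, or 6.25%, against 24.6% of all genes. The 15 were Psma2, Psma3, Psma4, Psma6, Psmb2, Psmb4, Psmb5 and Psmb7 of the core, Psmc2, Psmc6, Psmd11, Psmd12 and Psmd14 of the regulatory particle, and the chaperones Psmg3 and Psmg4. The core gave 8 of its 14 genes, the regulatory particle 5 of 17 and the other genes 2 of 17. The 3 lower genes were the immunoproteasome subunits Psmb8 and Psmb9 and the activator Psme3. Among the 44 proteasome genes with a mean of at least 10 FPKM, the same 15 were called by the same fit, against 10.6% of the 5856 genes of that level. By mean FPKM, 6 were more than 3-fold higher (Psma4, Psma6, Psmb5, Psmd14, Psmg3 and Psmg4), against 2.84% of all genes, and Psmb9 was more than 3-fold lower, against 13.5%.

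Both cKO 2-cell libraries were above both WT 2-cell libraries for 14 of 14 core genes, 9 of 17 regulatory genes and 29 of the 48 in all, compared with 14.0% of all genes. After median-ratio scaling of the libraries these counts were 14, 13 and 35, and after scaling to the same sum they were 12, 6 and 22. Both cKO 2-cell libraries exceeded the 6 other libraries for 19 of the 48 genes, against 11.0% of all genes. The median log2 difference between cKO and WT 2-cell embryos was 1.26 over the core, 0.82 over the regulatory particle, -0.01 over the other genes and -0.30 over all genes. A gene with no difference in FPKM thus lay above the median gene. Median-ratio scaling, which divides each library by its median ratio over genes to their geometric mean, moves that median to 0 and the 2 particle medians to 1.74 and 1.28. The calls rest on the spread shared by all 8 libraries. With a spread for each group, 2 genes (Psma4 and Psmg3) were higher and 1 (Psmb9) was lower, against 120 and 854 of all genes. With the 4 2-cell libraries alone and 2 residual degrees of freedom, 0 of the 48 and 0 of all genes passed. At an unadjusted p under 0.05, the same fit had 18 of the 48 higher and 3 lower, against 819 and 3416 of all genes. Leaving out 1 library leaves its group without a spread of its own, so counts of called genes from such fits are not given. The particle medians without 1 library are given below.

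**Figure D3:**
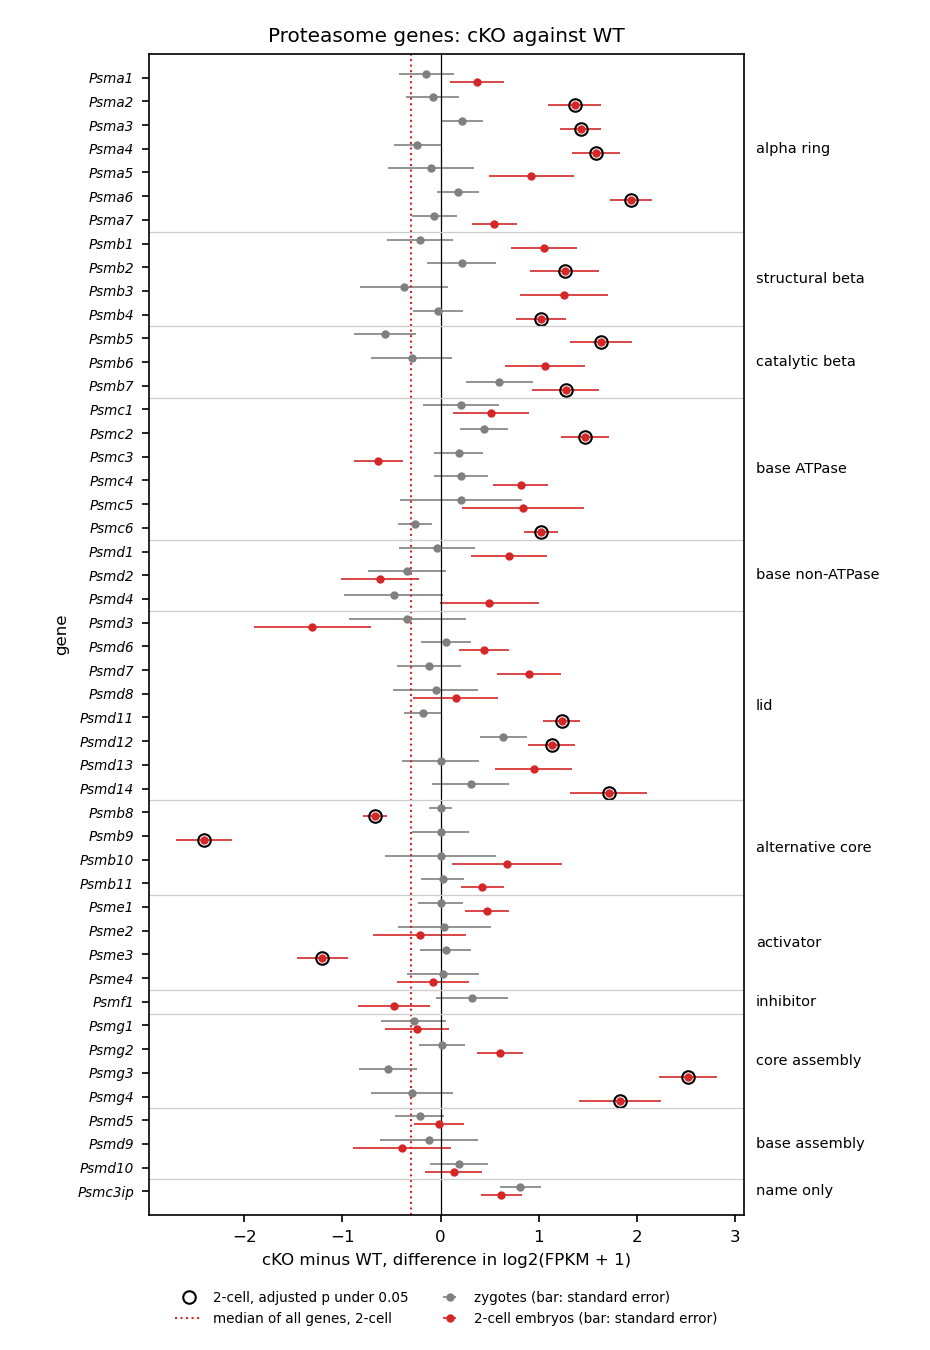
Difference in log2(FPKM + 1) between cKO and WT for each of the 48 genes, in zygotes (grey) and 2-cell embryos (red), with standard errors from limma, 2 libraries per group and circles around the genes called at the 2-cell stage. The core genes lie between 0.37 and 1.94 at the 2-cell stage, while the dotted line marks the median of all genes at -0.30.

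Psma6, an alpha subunit (mm9 chromosome 12, 56485209 to 56519441), differed most among core genes. It was at 158 and 114 FPKM in WT zygotes, 155 and 148 FPKM in cKO zygotes, 182 and 184 FPKM in WT 2-cell embryos and 734 and 674 FPKM in cKO 2-cell embryos. The 2 cKO 2-cell libraries stood clear of the other 6, and the mean was 3.85-fold that of WT, with a log2 difference of 1.94 ± 0.22 (limma adjusted p = 0.00277). Psmb5 was at 456 and 531 FPKM in cKO 2-cell embryos against the 169 and 147 FPKM of WT, 3.13-fold higher, with a log2 difference of 1.64 ± 0.32 (limma adjusted p = 0.0127). Psmb7 was at 338 and 554 FPKM, 2.48-fold higher than WT (limma adjusted p = 0.0349). Psmb6, the catalytic subunit that had fallen in WT, was at 104 and 223 FPKM in cKO 2-cell embryos, with both values above WT and a spread between them that left it short of the threshold (limma adjusted p = 0.10). Psma2 was at 459.6 and 604 FPKM, higher than in WT 2-cell embryos (limma adjusted p = 0.0138) and below every zygote library.

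In the regulatory particle, Psmd14 was at 244 and 104 FPKM in cKO 2-cell embryos against 43.5 and 52.7 FPKM in WT, 3.61-fold higher with a log2 difference of 1.71 ± 0.39 (limma adjusted p = 0.0217). Psmd11, a scaffold of the lid with a near-identical locus elsewhere in mm9, was at 270.5 and 318 FPKM against 122 and 126 FPKM, and had been at 115 to 149 FPKM in the zygote libraries (limma adjusted p = 0.0067). Not all subunits of this particle were higher in cKO. Psmd3, another lid scaffold, was at 46.3 and 11.2 FPKM in cKO and at 51.6 and 66.0 FPKM in WT 2-cell embryos (limma adjusted p = 0.151), and Psmc3 was at 30.3 and 41.7 FPKM against 56.2 and 55.3 FPKM (limma adjusted p = 0.105). Both cKO values lay below both WT values in these 2 genes. Psmd13 was at 25.5 and 57.6 FPKM (limma adjusted p = 0.119), and Psmd1 at 48.9 and 20.7 FPKM (limma adjusted p = 0.227).

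Psmg3 had the largest rise of the 48 genes on the log2(FPKM + 1) scale. This core assembly chaperone (mm9 chromosome 5, 140299548 to 140302797) was at 8.36 to 15.6 FPKM in the 4 zygote and 2 WT 2-cell libraries and at 109 and 67.4 FPKM in cKO 2-cell embryos. The mean was 6.24-fold that of WT 2-cell embryos, with a log2 difference of 2.52 ± 0.30 (limma adjusted p = 0.00312). Psmg4, its partner, was at 18.7 and 12.6 FPKM in cKO and at 2.06 and 5.93 FPKM in WT 2-cell embryos, 3.92-fold higher (limma adjusted p = 0.021), and at 23.7 to 33.7 FPKM in the zygote libraries. The other pair did not pass the test: Psmg1 was at 16.2 and 29.4 FPKM in cKO 2-cell embryos, overlapping WT, and Psmg2 was at 20.8 and 25.7 FPKM, above WT (limma adjusted p = 0.101). The base chaperones overlapped between genotypes, with Psmd5 at 139.6 and 146 FPKM, Psmd9 at 13.1 and 4.54 FPKM and Psmd10 at 7.26 and 10.5 FPKM in cKO 2-cell embryos.

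Psmb9 was at the floor in both cKO 2-cell libraries, at least 10.2-fold lower than in WT 2-cell embryos (limma adjusted p = 0.00321). Psmb8 was at the floor in both as well, against 1.79 and 2.63 FPKM in WT (limma adjusted p = 0.0106). The call of Psmb8 was lost with median-ratio scaling and with a spread for each group. Of the 5 white blood cell markers given above, 3 were at the floor in both cKO 2-cell libraries, and Cd52 was not. Psmb10, the third immunoproteasome subunit, was at 17.8 and 63.9 FPKM in cKO, overlapping WT. Psme3 was at 45.1 and 28.2 FPKM in cKO and at 80.6 and 86.3 FPKM in WT 2-cell embryos, 2.28-fold lower (limma adjusted p = 0.0175). The other activators did not pass the test, with Psme1 at 18.8 and 22.0 FPKM, Psme2 at 52.7 and 76.7 FPKM and Psme4 at 88.2 and 40.2 FPKM in cKO 2-cell embryos. Psmf1 was at 7.42 and 4.09 FPKM in cKO, overlapping WT. Psmc3ip was at 7.94 and 6.32 FPKM in cKO zygotes and at 121 and 149 FPKM in cKO 2-cell embryos.

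Whether the genotype difference itself differed between the 2 stages was tested as an interaction. Of the 48 genes 7 passed, or 14.6%, against 11.8% of all genes, which is a share close to the background. The difference at the 2-cell stage exceeded that in zygotes for Psma4, Psma6, Psmb5, Psmc6, Psmd11 and Psmg3 and was below it for Psmb9. None of the 7 passed in every alternative fit described below, so these calls depend on the processing.

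The 2 particles were then compared by their summed levels. The 14 core genes summed to 3121 to 4406 FPKM in the zygote libraries, 2418 and 2070 FPKM in WT 2-cell embryos and 4853 and 5996 FPKM in cKO 2-cell embryos. As a share of all FPKM, the core made up 0.419% and 0.378% of the WT 2-cell libraries and 0.833% and 0.778% of the cKO 2-cell libraries. Both cKO libraries were thus above both WT libraries on this scale too. This share is relative as well, and transcripts per embryo were not measured. The ratio of the core sum to the regulatory sum was 3.14 to 3.80 in the zygotes, 2.27 and 1.87 in WT 2-cell embryos and 2.16 and 3.61 in cKO 2-cell embryos. WT 2-cell embryos were below the zygotes in this ratio, and the cKO 2-cell libraries fell on either side, so no difference between genotypes was resolved. The same holds for the difference between the particles in the median log2 change: the core exceeded the regulatory particle by 0.45, but by 0.01 without cKO 2-cell replicate 2 and by 1.02 without cKO 2-cell replicate 1. In an exact permutation test of 2 libraries against 2, no two-sided p under 0.333 is possible.

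**Figure D4:**
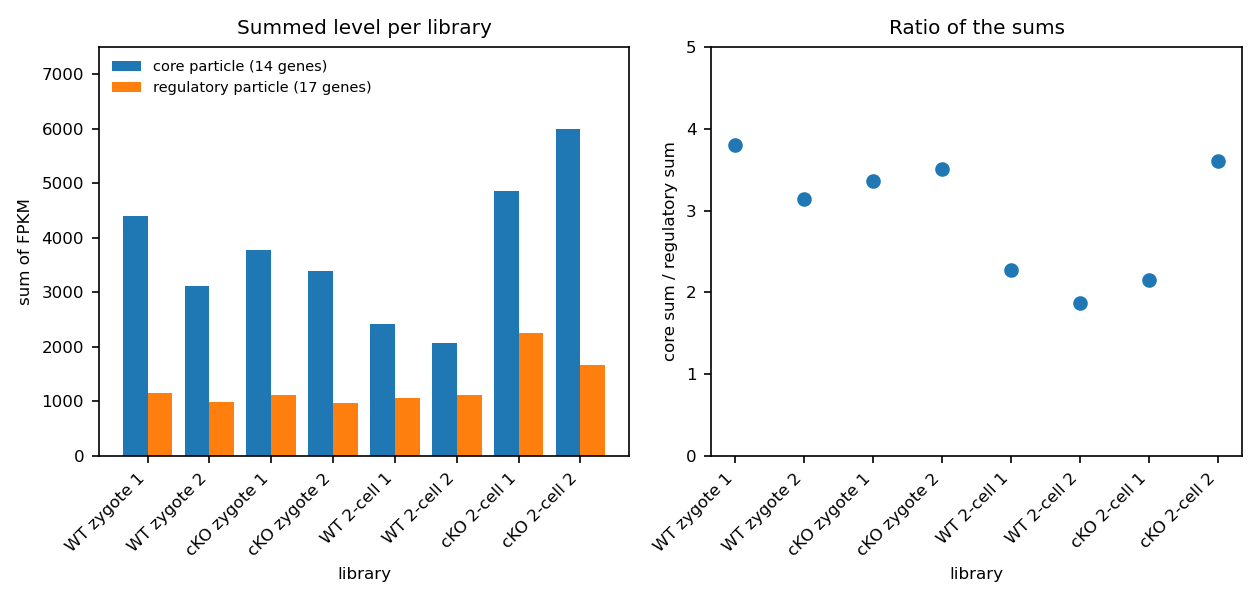
Left, sum of FPKM over the 14 core genes (blue) and the 17 regulatory particle genes (orange) in each library. Right, ratio of the 2 sums, which was 3.14 to 3.80 in the zygotes and 2.16 and 3.61 in the 2 cKO 2-cell libraries.

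Of 26 genes that work with the proteasome 23 were in the table, and in 2-cell embryos 2 were higher and 4 lower in cKO, against 6.16% and 24.6% of all genes. Their median log2 difference was -0.38, and that of all genes was -0.30. The 2 higher genes were Pomp, the maturation factor of the core, at 268 and 350.1 FPKM in cKO and 95.6 and 80.9 FPKM in WT (limma adjusted p = 0.00553), and Usp14, a deubiquitinase that binds the base, at 46.4 and 27.2 FPKM against 16.1 and 12.4 FPKM (limma adjusted p = 0.0209). The 4 lower genes included Nfe2l1, which encodes the factor named above for the promoters, at 13.3 and 10.8 FPKM in cKO and 28.0 and 31.4 FPKM in WT (limma adjusted p = 0.00759). Ngly1, whose product processes that factor, was at 6.11 and 7.72 FPKM against 16.8 and 11.9 FPKM (limma adjusted p = 0.0258). Nfe2l2 and the ubiquitin shuttle gene Rad23b were the other 2. Without cKO 2-cell replicate 2, the log2 difference was 1.60 for Pomp, 1.65 for Usp14, -1.10 for Nfe2l1 and -1.09 for Ngly1. It was -1.09 for Nfe2l2 and -0.84 for Rad23b.

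Rps27a, which encodes ubiquitin fused to a ribosomal protein, was at 9.20 to 14.4 FPKM in the zygote libraries. At the 2-cell stage it was at 759 and 2612 FPKM in cKO against 444 and 295 FPKM in WT embryos, with both cKO values above WT (limma adjusted p = 0.0456). Its log2 difference was 1.96 with all libraries and 1.06 without cKO 2-cell replicate 2, so a large part of it came from that library. Ubb, a gene of ubiquitin repeats, did not pass the test, at 465 and 349.7 FPKM in cKO and 382 and 462 FPKM in WT (limma adjusted p = 0.915).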

How the data were processed

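RNA-seq of 8 libraries was used; the 7 ChIP-seq samples are not analysed here. The authors trimmed reads to 50 bp, mapped them to mm9 with TopHat 2.1.1 and deposited FPKM values from Cufflinks 2.2.1, with values under 1 set to 1 and genes under 1 in all libraries removed; the gene annotation is not given in the sources used here. The FPKM table holds no counts, so depth is unknown and precision rests on 2 libraries per group. Groups came from the sample labels. limma 3.58.1 (R 4.3.3) was fitted to log2(FPKM + 1) of all 14392 genes and 4 groups, with a trended prior, Benjamini-Hochberg adjustment and 4 residual degrees of freedom, and genes were called at an adjusted p under 0.05; a fold on this scale understates changes of low genes. Mean FPKM more than 3-fold apart was a second rule. Folds against the floor are lower bounds. Other steps used Python 3.11.15, numpy 2.4.6, pandas 2.3.3, matplotlib 3.10.9 and minimap2 2.31-r1302, which aligned transcripts of GENCODE M1 to mm9 to find loci matching at least 50% of a transcript at 95% identity. The limma step was tested on simulated data. Values by library, though not from every group, were given for the catalytic, alternative and assembly genes, Psmd14, activators and inhibitor. They were also given for the highest and lowest members of each particle and the 5 largest differences in each direction. Other genes named were chosen after their values were seen. The members and lists were chosen with earlier results of these data known.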

Additional observations from a re-analysis of the deposited data

Results flagged for a closer look

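In 7 proteasome genes, the difference between cKO and WT embryos was not the same at the 2 stages by the interaction test of limma (adjusted p under 0.05). On the log2(FPKM + 1) scale, the genotype difference at the 2-cell stage minus that in zygotes was 3.05 for Psmg3, 2.21 for Psmb5, 1.82 for Psma4, 1.76 for Psma6, 1.42 for Psmd11, 1.29 for Psmc6 and -2.41 for Psmb9. In each of the 7, the log2 difference between genotypes in zygotes lay between -0.57 and 0.17, and the 2-cell libraries of the genotypes did not overlap. Psmb5, Psma4 and Psmd11 have a near-identical locus in mm9, so their levels are uncertain. Psmb9 was at the floor in 6 of the 8 libraries. The median of the same difference over all genes was -0.34. The 7 genes are 14.6% of the 48, against 11.8% of all genes that passed, a share close to the background. None of the 7 passed in every alternative run.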

How the results depend on the processing

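No member was called in zygotes under any alternative run, and the count of genes higher in WT 2-cell embryos than in WT zygotes was 15 to 20, with 15 to 19 of the 19 kept. Leaving out 1 library in turn, the count of genes lower in WT 2-cell embryos was 6 to 16, that of genes lower in cKO 2-cell embryos than in cKO zygotes 5 to 13, that of genes higher in cKO than WT 2-cell embryos 8 to 21, and that of genes whose genotype difference changed between stages 0 to 16. With a spread for each group, these counts except the first were 5, 2 and 3, and 1 gene was lower in cKO than WT 2-cell embryos. With only the libraries compared, 5 genes were lower in cKO 2-cell embryos than in cKO zygotes, and 0 were higher and 0 lower in cKO than WT 2-cell embryos, a fit with fewer samples. With the filter at 10 FPKM, 1 gene was lower in cKO 2-cell embryos, since fewer genes were tested. By mean FPKM, a 2-fold threshold gave 13 genes lower in WT 2-cell embryos than WT zygotes, and 20 higher and 4 lower in cKO than WT 2-cell embryos. Median-ratio scaling gave 11 and 16 for the first and second of these, and 2 genes were higher when every library had to differ by over 3-fold. Leaving out 1 library gave 4 to 10 higher and 1 to 2 lower.

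For the medians in WT 2-cell embryos against WT zygotes, median-ratio scaling gave -0.45 for the core and turned that of the regulatory particle to -0.060. With wider lists, which add the alternative subunits to the core and the base chaperones to the regulatory particle, the core median was 0.56 and the difference between the particles turned to 0.35. Leaving out 1 library gave -0.22 to 0.080 for the core and -0.39 to -0.25 for the difference. In zygotes, the core median of cKO against WT was -0.31 to 0.17 without 1 library and the difference between particles -0.28 to 0.10. In 2-cell embryos, the core median was 1.74 with median-ratio scaling, 1.01 with sum scaling, 1.06 with wider lists and 1.08 to 1.59 without 1 library. That of the regulatory particle was 1.28, 0.57, 0.61 and 0.57 to 1.09, and the difference 0.010 to 1.02. The cause was not tested.

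The labels number the replicates alike in all groups. Same-numbered libraries deviated together in WT and cKO zygotes (correlation 0.497 across genes) and not at the 2-cell stage (-0.239). Whether the numbers pair the zygote libraries is thus not settled, and the main fit did not pair them. With the replicate block, 14 genes were higher and 3 lower in cKO than WT 2-cell embryos, and 5 differed between stages. Crossing the numbers of the cKO 2-cell libraries, an alternative added after seeing the data, gave 18 and 3. Having 2 libraries per group and the unknown depth limits these results.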
